A study of Mus musculus with 6 samples.

Results

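Genes of mitosis were examined in cultured vascular smooth muscle cells, which contract the artery wall, after knockdown of Ezh2. The 48 genes were chosen by symbol, as mitotic kinases and cyclins and genes of the spindle, kinetochore, condensin and cytokinesis, among 27502 genes in the tables. The cells were isolated from mouse aorta. Small interfering RNA against Ezh2 was used for 48 h in 3 samples (siEzh2) and 3 samples were controls. The sources used here do not state what the control cells received, the strain, age or sex of the mice, the siRNA sequences or the number of cultures or animals. P-values therefore reflect only how far these samples spread, and that spread may be technical. Values are FPKM, read fragments scaled by gene length and sequencing depth. That length took in all annotated exons of a gene, used in these cells or not. Levels of different genes can therefore be compared only roughly.

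A cell that commits to division builds up cyclin B and CDK1, condenses its chromosomes with condensin and topoisomerase II, and attaches them to spindle microtubules through kinetochores. The spindle checkpoint holds the anaphase-promoting complex (APC/C) back until all chromosomes are attached. The APC/C then marks securin and cyclin B for destruction, separase cuts cohesin, and the central spindle directs cytokinesis. Most of these genes are transcribed together late in the cell cycle. The MuvB complex, joined to repressors in resting cells and to B-MYB and FOXM1 in cycling cells, binds their promoters at a short element called CHR, often with NF-Y at CCAAT boxes nearby. In the adult artery wall smooth muscle cells seldom divide, whereas in culture they do. Ezh2 is the chief histone methyltransferase gene of Polycomb repressive complex 2, and its own transcription is known to rise in dividing cells.

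The promoters of 5 members are shown because the same elements stand in genes that rose (Ncapg, Kif11 and Top2a) and in genes that did not pass the test (Cdk1 and Cdc20). They were picked, after their values were seen, from 8 members whose stretch holds both elements and at most 30 bases of any GENCODE exon. Each line holds the 200 bases just before an annotated transcription start, 5′ to 3′ along the gene, from RefSeq on GRCm38.p6. Capitals mark CHR (TTTGAA, or TTCAAA on the opposite strand) and CCAAT (or ATTGG on the opposite strand).
Ncapg, chr5:45669725-45669924, plus strand: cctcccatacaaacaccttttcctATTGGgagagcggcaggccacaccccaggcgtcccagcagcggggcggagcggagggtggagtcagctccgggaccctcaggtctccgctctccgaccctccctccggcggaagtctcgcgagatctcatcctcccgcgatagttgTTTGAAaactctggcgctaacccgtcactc
Kif11, chr19:37376182-37376381, plus strand: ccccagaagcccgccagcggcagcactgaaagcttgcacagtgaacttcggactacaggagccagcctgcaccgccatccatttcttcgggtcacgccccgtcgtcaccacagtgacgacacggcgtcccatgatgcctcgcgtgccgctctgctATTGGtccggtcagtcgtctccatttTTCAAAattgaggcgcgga
Top2a, chr11:99024190-99024389, minus strand: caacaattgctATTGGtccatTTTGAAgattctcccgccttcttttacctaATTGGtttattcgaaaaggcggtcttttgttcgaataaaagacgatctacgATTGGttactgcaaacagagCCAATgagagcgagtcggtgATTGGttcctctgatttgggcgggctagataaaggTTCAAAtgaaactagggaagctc
Cdk1, chr10:69352913-69353112, minus strand: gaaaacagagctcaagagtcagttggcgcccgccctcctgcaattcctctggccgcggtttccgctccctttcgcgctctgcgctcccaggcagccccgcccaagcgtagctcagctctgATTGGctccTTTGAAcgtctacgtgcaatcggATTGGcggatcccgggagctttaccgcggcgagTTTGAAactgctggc
Cdc20, chr4:118437344-118437543, minus strand: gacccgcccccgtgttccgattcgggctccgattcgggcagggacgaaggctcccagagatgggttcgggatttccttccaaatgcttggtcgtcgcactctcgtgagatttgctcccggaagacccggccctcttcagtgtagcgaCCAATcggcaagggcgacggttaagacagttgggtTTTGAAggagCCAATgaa

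CHR stood in the window from 250 bases before to 50 bases after a start in 30 of the 40 members with a RefSeq window, and in 5466 of all 27025 genes (75.0% against 20.2%). Within 50 bases of the start on either side it stood in 26 of the 40 members (65%) and in 5.64% of all genes. CCAAT stood in 29 of the 40 (72.5%) and in 41.1% of all genes, and both elements together in 25 (62.5%) and 7.97%. An E2F element (TTTGGCGC, TTTCCCGC, TTTGCCGC or TTTCGCGC, both strands) stood in 4 of the 40 members (10.0%) and in 2.60% of all genes. In 29 DNA replication genes with a window the order was the other way round, with CHR in 4 (13.8%) and the E2F element in 12 (41.4%). CCAAT stood in 19 of these 29 (65.5%), near its share of the mitotic genes. In the windows of the members 1 match of an element overlapped a match of another. In the whole window CHR stood in 15 of 20 members that rose, in 14 of 18 that did not pass the test (75.0% and 77.8%) and in 1 of 2 that fell (Prc1). Within 50 bases of the start the counts were 11 of 20 (55.0%), 14 of 18 (77.8%) and 1 of 2. A match of letters is a description and shows no binding. The table held no window for Incenp, Tpx2, Cdc25c, Smc4, Foxm1, Ccna2, Kif20a and Aurkb.

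Between 16080005 and 18753124 reads per sample were recovered from the steps in the values. Ezh2 had 3.41, 3.59 and 3.88 FPKM in control and 1.20, 1.09 and 1.05 FPKM in siEzh2 samples, 3.26 times lower. Of 11 smooth muscle markers 8 were tested and 6 were lower. Their summed level was 877 to 902 FPKM in control and 610 to 650 in siEzh2 samples, and Tagln was near 0 (0.253 and 0.228 FPKM on average). Macrophage and leukocyte markers (2 higher and 2 lower of 4 tested) summed to 17.5 to 20.9 and 14.1 to 15.3 FPKM. Of the 8 markers in that list 4 were too low to test, among them pan-leukocyte Ptprc (0.00397 and 0.00416 FPKM on average). Whether macrophages or leukocytes were present was not tested. The sums were 119 to 120 and 109 to 110 FPKM for endothelial markers (1 higher and 2 lower of 3 tested), and 715 to 761 and 582 to 630 FPKM for fibroblast markers (1 higher and 4 lower of 7). Adipocyte markers (0 higher and 5 lower of 7) summed to 66.4 to 68.5 and 49.0 to 50.1 FPKM. Among all tested genes 24.1% were called higher and 22.7% lower. Genes of the mitochondrial genome, which bear on RNA quality, had 0 higher and 8 lower of 13 (61.5% lower). Their summed level was 19081 to 19794 FPKM in control and 15861 to 16976 in siEzh2 samples. The part of these shifts in the results on mitotic genes was not tested.

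The comparison asked which mitotic transcripts differed after knockdown of Ezh2. Of the 48 genes 23 rose, 3 fell (Smc4, Prc1 and Pttg1) and 22 did not pass the test, an adjusted p under 0.05 by limma over all genes tested. Every member passed the filter on low values. Among all 11869 genes tested 24.1% were called higher and 22.7% lower, against 47.9% and 6.25% of the members. The median log2 fold change, on the log2(FPKM + 1) scale used throughout, was 0.16 over the members and 0.01 over all tested genes. With no filter on low values the calls of Bub1, Ttk, Nuf2, Hmmr and Top2a were lost (adjusted p = 0.0864, 0.0514, 0.0841, 0.0920 and 0.0583, limma). The rises were small, from 1.14 to 1.58 times the control mean with a median of 1.23, and Ncapg was the single member above 1.5 times. In 26 members every siEzh2 sample lay above every control sample and in 4 every one lay below, against 30.0% and 28.1% of all tested genes. More dividing cells and more of each transcript per dividing cell cannot be told apart in RNA from whole cultures.

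**Figure D1:**
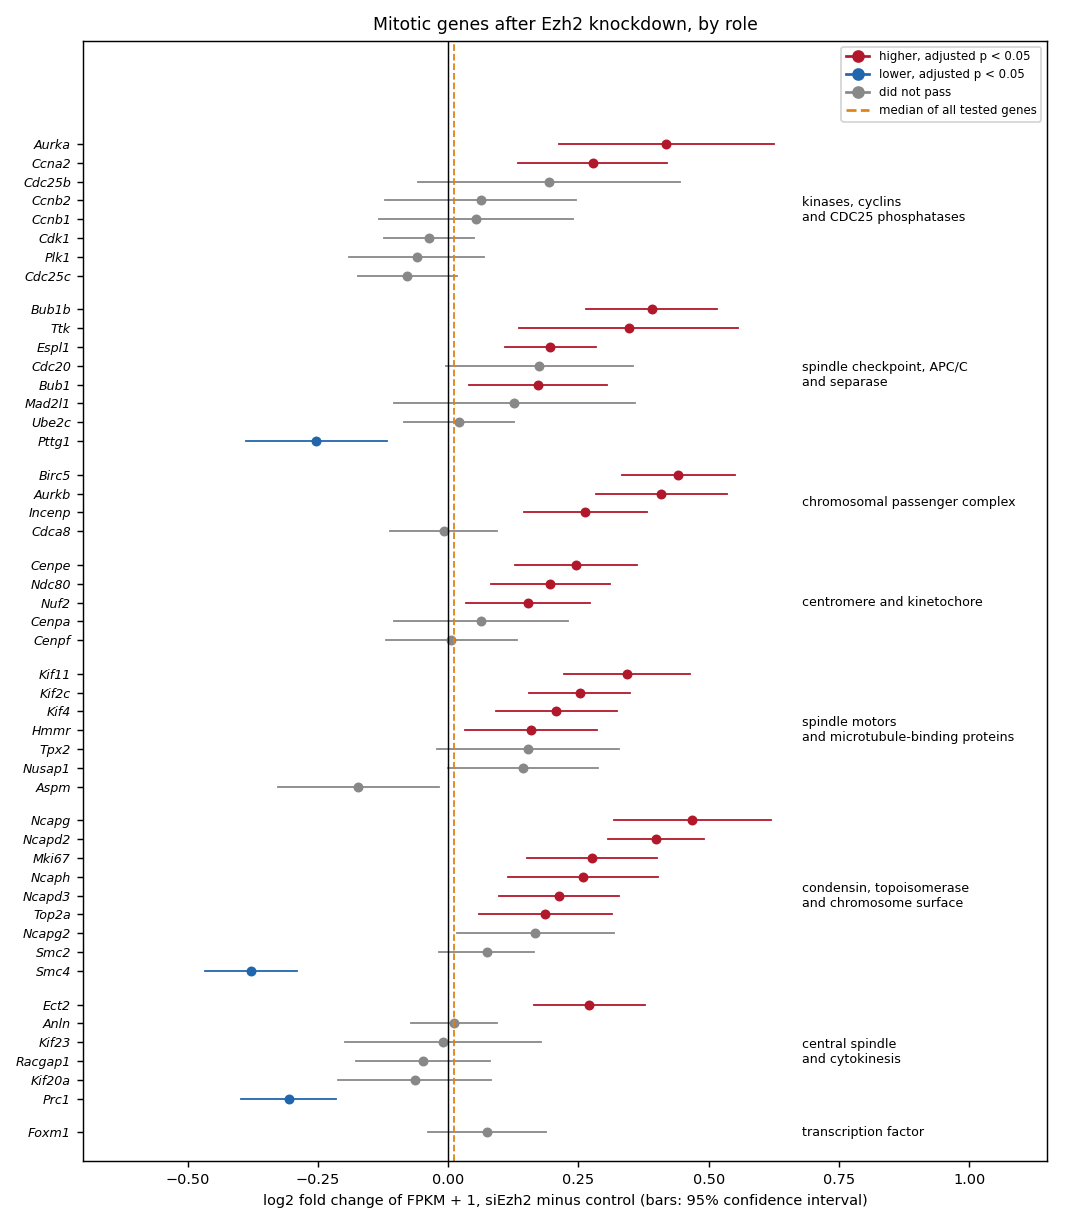
Log2 fold change of FPKM + 1 (siEzh2 minus control, horizontal axis) with its 95% confidence interval for each of the 48 genes, grouped by role. Red marks the 23 genes that rose, blue the 3 that fell and grey the 22 that did not pass; the dashed line is the median of all tested genes, 0.01.

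Of the 8 kinases, cyclins and CDC25 phosphatases, which drive mitotic entry, Aurka and Ccna2 rose and the other 6 did not pass. The share that rose, 25.0%, was near the 24.1% of all tested genes. Aurka, the kinase of centrosomes and spindle poles, had 12.1, 12.8 and 10.2 FPKM in control and 16.7, 16.0 and 15.0 in siEzh2 samples. The groups did not overlap, and the log2 fold change was 0.42 (SE 0.0850, adjusted p = 0.00863, limma). Ccna2, cyclin A2 of S phase and G2, had 5.52, 5.87 and 6.25 FPKM in control and 7.41, 7.76 and 6.85 in siEzh2 samples. All 3 siEzh2 samples were above the highest control, by a log2 fold change of 0.28 (adjusted p = 0.0104, limma), although 12.5% of its exon bases lie in Exosc9 on the opposite strand. Cdc25c, a phosphatase that activates CDK1, was at 1.15, 1.10 and 1.09 FPKM in control and 1.04, 1.05 and 0.923 in siEzh2 samples. Its siEzh2 samples lay just below the controls and it did not pass (log2 fold change −0.08, adjusted p = 0.146, limma), with 12.7% of its exon bases in Gm3550 on the opposite strand.

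Cdk1, the kinase that drives entry into mitosis, had 9.20, 9.08 and 8.65 FPKM in control and 8.78, 8.67 and 8.71 in siEzh2 samples. These values overlapped, and the 95% confidence interval of its log2 fold change ran from −0.12 to 0.05. For Ccnb1 and Ccnb2, the B-type cyclins that bind CDK1, the intervals were −0.13 to 0.24 and −0.12 to 0.25. That of Plk1, a kinase of the spindle poles, the kinetochore and cytokinesis, was −0.19 to 0.07. Cdc25b, another activating phosphatase, varied more between controls (3.60 to 4.96 FPKM) and its interval was −0.06 to 0.45. Without control sample 3 it passed (log2 fold change 0.30, adjusted p = 0.0196, limma). Foxm1, the transcription factor of late cell cycle genes, had 7.01, 7.56 and 7.75 FPKM in control and 8.10, 7.93 and 7.62 in siEzh2 samples. It did not pass the test (adjusted p = 0.232, limma).

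Among the 8 genes of the checkpoint, the APC/C and sister separation 4 rose and 1 fell. Bub1b encodes BUBR1, part of the mitotic checkpoint complex that inhibits CDC20. It had 5.10, 5.45 and 5.40 FPKM in control and 7.81, 7.16 and 6.89 in siEzh2 samples, a log2 fold change of 0.39 (SE 0.0520, adjusted p = 0.00172, limma). The siEzh2 values were all above the controls. Ttk, the kinase MPS1 that starts checkpoint signalling, rose 1.48 times to 1.90 ± 0.232 FPKM from 1.28 ± 0.203 (SD, n = 3 each). Its adjusted p by limma was 0.0189, and 0.0576 and 0.0595 without siEzh2 sample 1 or 2. Bub1, a checkpoint kinase at the kinetochore, was called at 1.17 times (adjusted p = 0.0420, limma). That call was lost without control sample 1, 2 or 3 (adjusted p = 0.0604, 0.116 and 0.107) or siEzh2 sample 1 or 2 (0.0723 and 0.0623), and with both other scalings of the samples (0.0617 and 0.0577).

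Securin and separase, which bind each other until anaphase, went in opposite directions. Pttg1, the securin that inhibits separase, had 8.73, 9.46 and 9.61 FPKM in control and 7.96, 7.80 and 7.10 in siEzh2 samples. It fell by 0.25 on the log2 scale (SE 0.0560, adjusted p = 0.0119, limma), without overlap. Espl1, the separase that cuts cohesin, had 2.05, 2.19 and 2.20 FPKM in control and 2.61, 2.65 and 2.55 in siEzh2 samples (log2 fold change 0.20, adjusted p = 0.00605, limma). Per sample the ratio of Pttg1 to Espl1 was 4.27, 4.31 and 4.36 in control and 3.04, 2.95 and 2.78 in siEzh2 samples.

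The APC/C side of this group did not pass. Cdc20, which activates the APC/C and was the member with the highest level, had 47.9, 43.5 and 43.2 FPKM in control and 51.9, 54.6 and 46.1 in siEzh2 samples. These overlapped (log2 fold change 0.18, adjusted p = 0.0981, limma). Cdc20 passed without siEzh2 sample 3 (0.24, adjusted p = 0.0304, limma) and on recovered reads (adjusted p = 0.00451, limma-voom). Ube2c, the ubiquitin-conjugating enzyme of the APC/C, had an interval of −0.08 to 0.13, with 22.8% of its exon bases in Tnnc2 on the opposite strand. For Mad2l1, the checkpoint protein MAD2, the interval was −0.10 to 0.36.

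In the chromosomal passenger complex, which corrects wrong attachments and later guides cytokinesis, 3 of 4 subunits rose and the fourth did not pass. The share that rose was 75.0%, against 24.1% of all tested genes. Birc5 encodes survivin, which brings the complex to the centromere. It had 6.92, 6.84 and 6.49 FPKM in control and 10.0, 9.40 and 9.19 in siEzh2 samples, with a log2 fold change of 0.44 (SE 0.0448, adjusted p = 0.000647, limma). Aurkb, the kinase of the complex, had 6.002, 6.78 and 6.60 FPKM in control and 9.26, 8.83 and 8.62 in siEzh2 samples (log2 fold change 0.41, SE 0.0523, adjusted p = 0.00148, limma). In both genes every siEzh2 sample lay above every control. Incenp, the scaffold, had 7.88, 8.65 and 8.76 FPKM in control and 10.6, 10.1 and 10.2 in siEzh2 samples (log2 fold change 0.26, adjusted p = 0.00598, limma). Cdca8 encodes borealin, which with survivin binds the scaffold. It had 4.21, 4.14 and 3.93 FPKM in control and 4.25, 4.05 and 3.90 in siEzh2 samples, a log2 fold change of −0.01 with an interval of −0.11 to 0.09. The ratio of Birc5 to Cdca8 was 1.64, 1.65 and 1.65 in control and 2.36, 2.32 and 2.36 in siEzh2 samples.

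**Figure D2:**
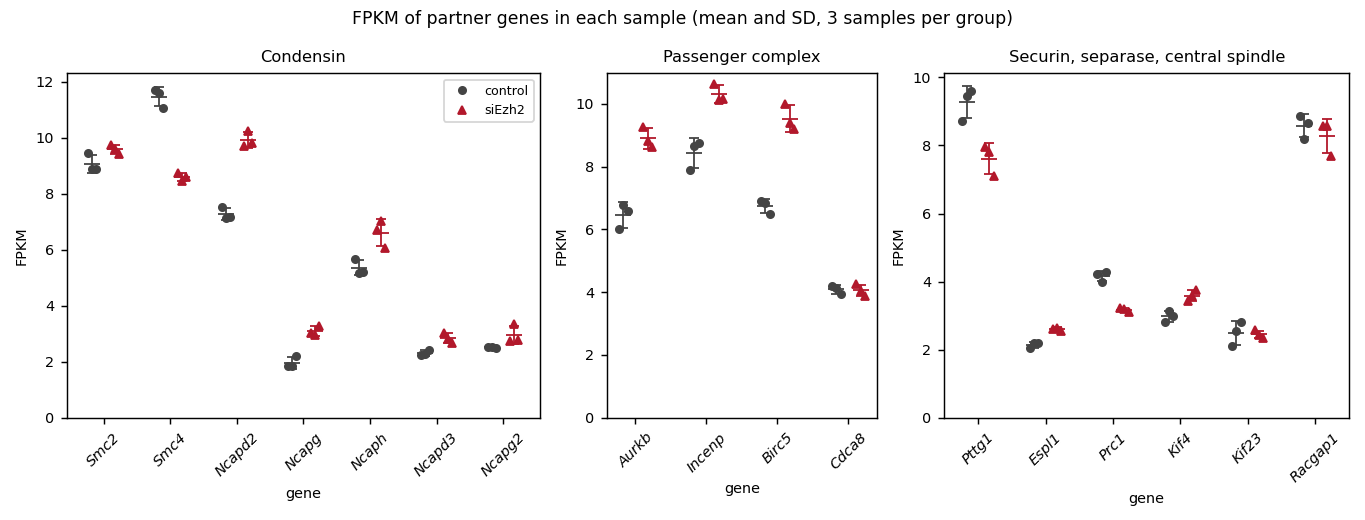
FPKM (vertical axes, from 0) of condensin subunits, passenger complex subunits and the genes of securin, separase and the central spindle in each sample, with the mean and SD of the 3 control samples (grey circles) and 3 siEzh2 samples (red triangles). Smc4, Pttg1 and Prc1 are lower in all siEzh2 samples, while Ncapd2, Ncapg, Birc5 and Aurkb are higher in all of them and Cdca8 overlaps.

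At the kinetochore 3 of 5 genes rose, and the centromeric histone gene did not pass. Cenpe, a motor that carries chromosomes along microtubules, had 4.26, 4.05 and 3.84 FPKM in control and 5.13, 5.11 and 4.72 in siEzh2 samples (log2 fold change 0.25, adjusted p = 0.00758, limma). Ndc80 and Nuf2 encode partners of the complex that grips microtubules. Ndc80 had 1.69, 1.79 and 1.78 FPKM in control and 2.34, 2.02 and 2.11 in siEzh2 samples (log2 fold change 0.20, adjusted p = 0.0163, limma, and 0.0531 without control sample 1). Nuf2 had 3.04, 2.82 and 2.85 FPKM in control and 3.57, 3.34 and 3.13 in siEzh2 samples (log2 fold change 0.15, adjusted p = 0.0444, limma). Both rose without overlap between groups. The call of Nuf2 was lost without control sample 1, 2 or 3 (adjusted p = 0.0547, 0.122 and 0.116, limma) or siEzh2 sample 1 or 2 (0.106 and 0.1001). The other scalings (0.0777 and 0.0612) and limma with trend and robust on (0.0654) also ended it. Cenpa, the histone H3 variant of centromeres, had an interval of −0.10 to 0.23, and Cenpf, a large kinetochore protein, one of −0.12 to 0.13.

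Of the 7 spindle motors and microtubule-binding proteins 4 rose (57.1%, against 24.1% of all tested genes), 3 of them kinesins. Kif11, the motor that pushes spindle poles apart, had 1.78, 1.84 and 1.64 FPKM in control and 2.43, 2.37 and 2.68 in siEzh2 samples (log2 fold change 0.34, SE 0.0498, adjusted p = 0.00239, limma). Kif2c, which takes microtubules apart at the kinetochore, had 4.67, 4.37 and 4.37 FPKM in control and 5.63, 5.32 and 5.60 in siEzh2 samples (log2 fold change 0.25, adjusted p = 0.00342, limma). Kif4, a chromosome-bound motor, had 2.80, 3.15 and 2.98 FPKM in control and 3.43, 3.59 and 3.75 in siEzh2 samples (log2 fold change 0.21, adjusted p = 0.0141, limma). All 3 were separated between groups, with 15.1% of the exon bases of Kif4 in Pdzd11 on the opposite strand.

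Tpx2, which activates Aurora A on the spindle, and Nusap1, a microtubule bundler, were higher in every siEzh2 sample than in every control but did not pass (adjusted p = 0.129 and 0.0908, limma). Tpx2 passed on recovered reads (adjusted p = 0.0118, limma-voom). Hmmr, a spindle assembly factor, was called at 1.14 times (adjusted p = 0.0467, limma). It lost the call without control sample 1, 2 or 3 (adjusted p = 0.0715, 0.0725 and 0.126) and without siEzh2 sample 1, 2 or 3 (0.0617, 0.122 and 0.0722). Both other scalings (0.0786 and 0.0656) ended it as well. Aspm, a protein of spindle poles, was the gene of this group with a negative log2 fold change (−0.17, adjusted p = 0.0675, limma). It passed as lower without control sample 3 (adjusted p = 0.0253), with quantile normalization (0.0309) and on recovered reads (0.0128).

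Subunits of condensin were called in both directions. With Mki67 and Top2a, 6 of this group of 9 rose and 1 fell (66.7% and 11.1%). Among all tested genes 24.1% were higher and 22.7% lower. Smc2 and Smc4 form the ATPase pair of both condensins. Ncapd2, Ncapg and Ncaph complete condensin I, and Ncapd3, Ncapg2 and Ncaph2 condensin II. Smc4 (ENSMUSG00000034349, chromosome 3 from 69004738 to 69034623, mm10) had 11.7, 11.6 and 11.1 FPKM in control and 8.73, 8.44 and 8.58 in siEzh2 samples. It fell by 0.38 on the log2 scale (SE 0.0364, adjusted p = 0.000535, limma), without overlap. Its partner Smc2 had 9.43, 8.88 and 8.87 FPKM in control and 9.74, 9.60 and 9.42 in siEzh2 samples. Those values overlapped and did not pass (interval −0.02 to 0.17). In FPKM, Smc4 was thus above Smc2 in every control sample, at a ratio of 1.24, 1.31 and 1.25. It was below Smc2 in every siEzh2 sample, at 0.897, 0.880 and 0.911. Which of the 2 had more transcripts is not settled by this, since FPKM depends on the exon length used.

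The 3 other subunits of condensin I rose. Ncapd2 (ENSMUSG00000038252, chromosome 6 from 125168007 to 125191701) had 7.52, 7.14 and 7.18 FPKM in control and 9.70, 10.2 and 9.82 in siEzh2 samples. The log2 fold change was 0.40 (SE 0.0381, adjusted p = 0.000522, limma), and the groups did not overlap. Ncapg had 1.84, 1.84 and 2.20 FPKM in control and 3.03, 2.94 and 3.29 in siEzh2 samples, with the largest log2 fold change of the 48 genes (0.47, SE 0.0619, adjusted p = 0.00168, limma). Of its exon bases 13.4% lie in Lcorl on the opposite strand. Ncaph rose 1.23 times, from 5.35 ± 0.269 to 6.60 ± 0.489 FPKM (SD, n = 3 each). In condensin II Ncapd3 rose 1.23 times, to 2.84 ± 0.181 FPKM from 2.31 ± 0.1002 (SD, n = 3 each). Ncapg2 was higher in every siEzh2 sample without passing (adjusted p = 0.0672, limma, and 0.0107 on recovered reads, limma-voom), and Ncaph2, which is not among the 48 genes, did not pass (adjusted p = 0.199, limma).

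Mki67 and Top2a, both bound to mitotic chromosomes, rose. Mki67, which encodes the proliferation antigen Ki-67 that coats chromosomes, had 9.13, 8.67 and 8.39 FPKM in control and 11.3, 11.0 and 10.1 in siEzh2 samples (log2 fold change 0.28, adjusted p = 0.00622, limma). Top2a, the topoisomerase that untangles DNA, rose 1.15 times, to 11.7 ± 0.481 FPKM against 10.1 ± 0.576 in control samples (SD, n = 3 each). Its adjusted p by limma was 0.0281. Its call was lost without control sample 2 or 3 (adjusted p = 0.0711 and 0.0572) or siEzh2 sample 1 or 2 (0.0668 and 0.0834).

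Of the 6 genes of the central spindle and cytokinesis Ect2 rose, Prc1 fell and 4 did not pass. The shares that rose and fell, 16.7% each, were below the 24.1% and 22.7% of all tested genes. Prc1 (ENSMUSG00000038943, chromosome 7 from 80294450 to 80316259), which crosslinks antiparallel microtubules of the central spindle, had 4.23, 3.98 and 4.28 FPKM in control and 3.23, 3.18 and 3.12 in siEzh2 samples. It fell by 0.31 on the log2 scale (SE 0.0373, adjusted p = 0.00124, limma), without overlap and with 11.1% of its exon bases in Rccd1 on the opposite strand. Ect2, the exchange factor that activates RhoA at the cell equator, had 4.22, 4.18 and 4.21 FPKM in control and 5.29, 5.59 and 4.98 in siEzh2 samples (log2 fold change 0.27, adjusted p = 0.00365, limma). Kif20a, a motor of the central spindle, had 11.6, 10.5 and 11.5 FPKM in control and 11.4, 10.7 and 10.0 in siEzh2 samples, which overlapped (interval −0.21 to 0.08). Of its exon bases 29.3% lie in Cdc23 on the opposite strand. Kif23 and Racgap1, partners in centralspindlin, had intervals of −0.20 to 0.18 and −0.18 to 0.08. Anln, which encodes anillin of the contractile ring, had one of −0.07 to 0.09.

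**Figure D3:**
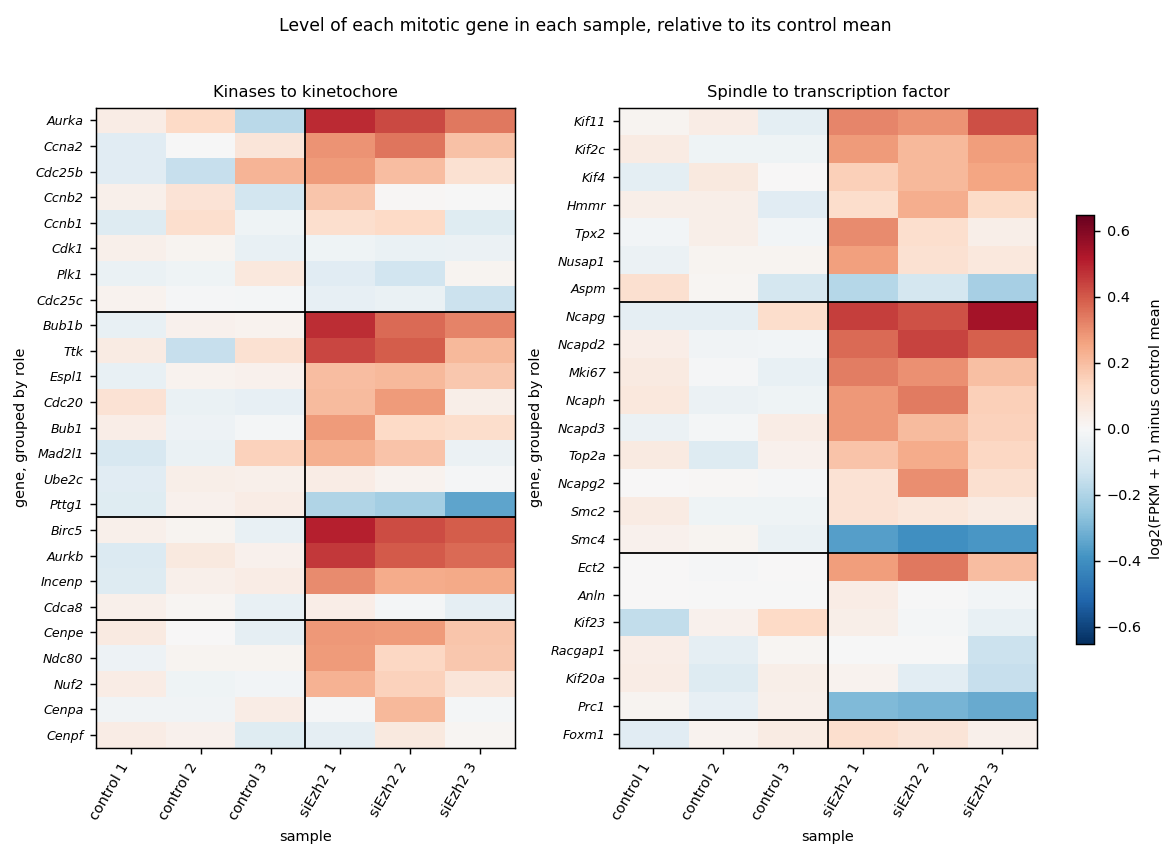
Difference of each gene's log2(FPKM + 1) from its control mean (colour scale) in the 3 control and 3 siEzh2 samples (columns), with genes (rows) grouped by role and black lines between roles. Most rows are red in all siEzh2 samples. The genes that fell, Pttg1, Smc4 and Prc1, are blue in all of them. Some rows that did not pass, such as Aspm, Cdc25c and Cdk1, are also below their control mean in all of them. Sample 3 of siEzh2 is the palest over the rows, with a median difference of 0.09.

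The siEzh2 samples were not equally high. The median difference from the control mean over the 48 genes was 0.20, 0.19 and 0.09 in siEzh2 samples 1 to 3 and 0.02, 0.00 and 0.00 in control samples 1 to 3. Sample 1 was the highest siEzh2 sample for 30 genes and sample 3 the lowest for 35. For the median gene the SD was 4.46% of the mean in control and 5.96% in siEzh2 samples. Each value rested on 79 to 2926 reads per gene and sample.

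Ratios within a sample were taken for 12 pairs of partners, chosen after the values had been seen. In 9 pairs the groups did not overlap, a count that this choice may have favoured. The share among other pairs of genes was not computed. Of single tested genes 30.0% had all siEzh2 samples above all controls and 28.1% all below. No test was run on the 12 pairs, since the values chose them. Besides those given above, the ratio of Prc1 to Kif4, which carries PRC1 to microtubule ends, was 1.51, 1.26 and 1.44 in control and 0.942, 0.886 and 0.831 in siEzh2 samples. That of Ncapd2 to Smc4 went from 0.643, 0.615 and 0.648 to 1.11, 1.21 and 1.14. Ndc80 and Nuf2, which rose together, kept overlapping ratios (0.555 to 0.634 in control and 0.606 to 0.674 in siEzh2 samples), as did Kif23 and Racgap1 (0.237 to 0.324 and 0.285 to 0.307).

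**Figure D4:**
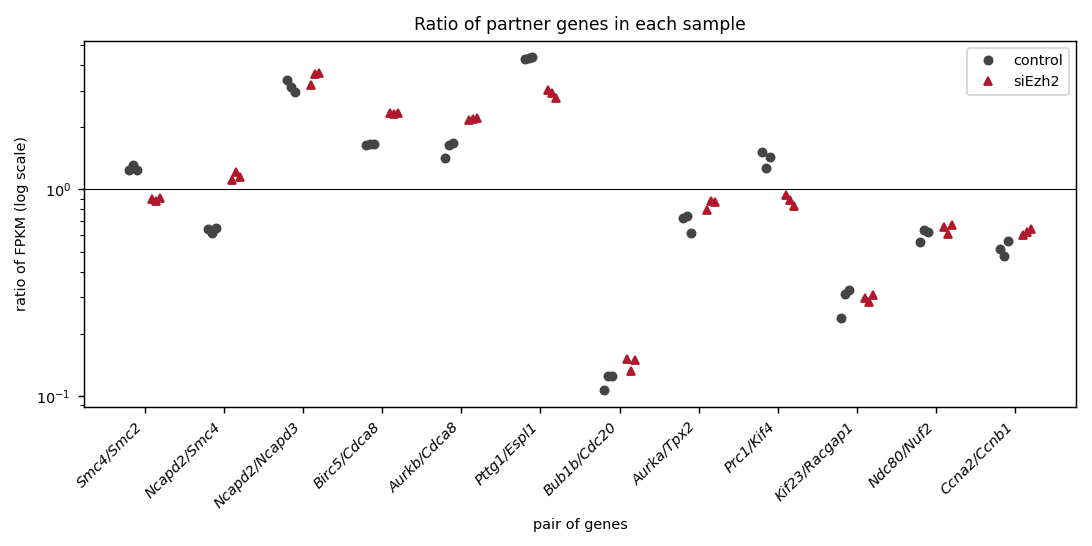
Ratio of FPKM of 12 pairs of partner genes (log axis) in each control sample (grey circles) and each siEzh2 sample (red triangles); the line marks a ratio of 1. Smc4/Smc2 and Prc1/Kif4 lie above 1 in all control and below 1 in all siEzh2 samples, and Ncapd2/Smc4 the reverse. Where a ratio lies relative to 1 depends on the exon lengths used, whereas its change between groups does not.

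Other genes, of mitosis and of cell cycle regulation, stood in 6 lists, in which 133 were tested and 17 were too low. Of those tested 4 reached 1 FPKM on average in siEzh2 samples alone, so the filter favoured a rise, and 2 of them were called higher (Cenpw and Kif15, named after their values were seen). The counts here are therefore over the 131 whose mean over all samples reached 1 FPKM. Among these 50 were higher and 14 lower, with a median log2 fold change of 0.10. Of all 11869 tested genes, which needed that mean in 1 group only, 24.1% were higher and 22.7% lower. Kinetochore and centromere genes had 12 higher and 1 lower of 29. Nsl1, of the complex that joins kinetochore to centromere, rose from 1.19 ± 0.0395 to 1.57 ± 0.0339 FPKM, and Cenpx of the inner kinetochore fell from 23.9 ± 2.30 to 19.9 ± 1.02 FPKM (SD, n = 3 each). Spindle, centrosome and cytokinesis genes had 14 higher and 3 lower of 34. Gtse1, a microtubule-binding protein of G2, rose 1.23 times to 32.3 ± 0.424 FPKM, and Haus7, of the augmin complex that branches spindle microtubules, fell from 25.8 ± 1.19 to 16.8 ± 0.533 FPKM (SD, n = 3 each). Among kinases, phosphatases and checkpoint genes 13 were higher and 2 lower of 19. The stress-responsive Polo-like kinase genes Plk2 and Plk3 moved apart, from 16.0 ± 0.562 to 27.7 ± 0.869 FPKM and from 10.9 ± 0.493 to 8.12 ± 0.183 FPKM (SD, n = 3 each).

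APC/C subunits and regulators had 1 higher and 3 lower of 16 (6.25% and 18.8%), both below the shares of all tested genes. The higher gene was Fbxo5, which encodes the APC/C inhibitor EMI1, at 1.49 times its control mean. Ube2s, which extends ubiquitin chains for the APC/C, fell from 20.5 ± 0.451 to 16.9 ± 0.279 FPKM (SD, n = 3 each). Cohesin and related genes had 2 higher and 0 lower of 13, also below those shares. The higher gene with the smaller p was Pds5a, a cohesin regulator (1.15 times). In the list of DREAM, MuvB, B-MYB and E2F genes 8 were higher and 5 lower of 20 (40.0% and 25.0%). The share that was lower was near the 22.7% of all tested genes. E2f7, a repressor of E2F targets, rose 1.69 times and Nfyc, a subunit of NF-Y that binds CCAAT boxes, fell from 10.1 ± 0.197 to 7.14 ± 0.570 FPKM (SD, n = 3 each). Mybl2, which encodes B-MYB and was named after its values were seen, was higher at 1.46 times (adjusted p = 0.0462, limma).

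DNA replication genes, which act in the preceding S phase, had 26 higher and 0 lower of 36 tested, and 1 of the 26 reached 1 FPKM in siEzh2 samples alone. The share that was higher was 72.2%, against 24.1% of all tested genes. The median log2 fold change of the replication genes was 0.23 beside 0.16 for the 48 mitotic genes. The difference between the lists was not tested.

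**Figure D5:**
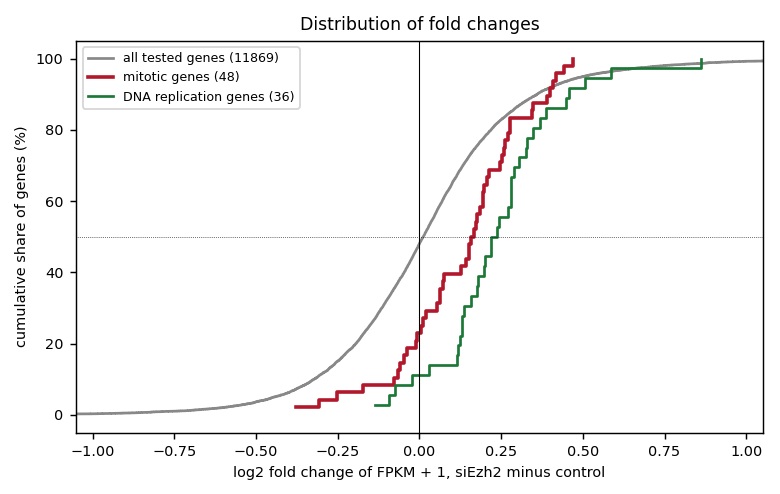
Cumulative share of genes (vertical axis, percent) by log2 fold change of FPKM + 1, siEzh2 minus control (horizontal axis), for all 11869 tested genes (grey), the 48 mitotic genes (red) and 36 DNA replication genes (green). The red and green curves lie to the right of the grey one over most of their range, crossing 50% at 0.16 and 0.23 against 0.01.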

How the data were processed

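RNA from 3 siEzh2 and 3 control samples was sequenced from stranded TruSeq mRNA libraries, per the labels' protocols. Each sample came with a table of FPKM values that the authors deposited. Trimmomatic, HISAT2, HTSeq and Cufflinks, with the build mm10, are named in the submitters' processing notes. The sources used here give neither versions nor the strand setting, so reads of genes that overlap on opposite strands may be mixed.

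All 11869 genes whose mean reached 1 FPKM in either group were fitted together on log2(FPKM + 1), using limma 3.58.1 (R 4.3.3) without covariates, trend or robust options, and p-values were adjusted by Benjamini-Hochberg. This scale understates changes of low genes. SD and fold ratios are of FPKM. Reads were recovered from FPKM times the exon length in GENCODE M21. Of the values under 1000 reads 98.4% to 98.5% were whole within 0.02. At this depth 3 reads equal 0.16 to 0.187 CPM, a limit of counting error only.

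On simulated data for this comparison (11606 genes, with 50 altered per size) the test found 52% of changes of 1.25 times, 96% of 1.5 times, 98% of 2 times and 100% of 3 times, with 12 false calls. In the data 24.1% of tested genes were called higher and 22.7% lower, a far larger part than was altered here. Adjustment is less strict when more genes change, so these shares and false calls may not hold for the data. The median rise among the 23 members that passed was 1.23 times, which leaves out rises that did not pass.

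Named in full were the 3 members with the smallest p in each role, all that fell and, in each other list, the gene with the smallest p in each direction. Cdk1, Cdc20, Smc2, Mki67 and Cdca8 were also named in full, outside this rule. The remaining members are given by interval, fold, mean or adjusted p. Members and lists were chosen with earlier results of these data known. Motifs were counted per gene over its RefSeq windows. Python 3.11.15 and matplotlib 3.10.9 did the rest.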

Additional observations from a re-analysis of the deposited data

How the results depend on the processing

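Alternatives were quantile normalization, median-of-ratios scaling, no filter, a filter at 5 FPKM, a pseudocount of 0.1, limma with trend and robust on, the replicate number as a block, limma-voom on recovered reads and leaving out each sample. Of the 23 rises 17 kept their call in every alternative in which the gene was tested, as did the 3 falls; Bub1, Ttk, Ndc80, Nuf2, Hmmr and Top2a lost theirs in at least 1. The count of members that rose was 13 with the filter at 5 FPKM, which left 28 members to test, and 18 to 23 when 1 sample was left out. The median log2 fold change of the members stayed between 0.136 and 0.201. With the replicate block 21 members rose and 3 fell, and Hmmr and Top2a lost their calls (adjusted p = 0.0516 and 0.0690, limma). Hmmr also lost its call at a pseudocount of 0.1 (adjusted p = 0.0521, limma). Same-numbered samples deviated together only weakly (correlations across genes of 0.0243, 0.0695 and 0.0405, each the highest for both of its samples), so the numbers were not taken as pairs. Genes near 0 changed sign without passing any test: the log2 fold change of Cenpf was −0.0329 with quantile normalization and −0.00763 with median-of-ratios scaling, and that of Anln −0.00959 with the latter. Leaving out 1 sample gave −0.0146 to 0.0394 for Ube2c, −0.0349 to 0.0157 for Cdca8, −0.0103 to 0.102 for Cenpa, −0.0339 to 0.0375 for Cenpf, −0.0904 to 0.0566 for Kif23 and −0.00792 to 0.0247 for Anln. Over all genes the share of calls that were higher was 51.5%, 47.5% with quantile normalization and 46.9% with median-of-ratios scaling. Depth limits the lowest members, where 79 reads stand behind a value.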
